A study of Mus musculus with 12 samples.

Results

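Brain endothelial cells keep their identity through a small set of transcription factors, and 9 of their genes were followed here in mouse cerebral vessels after lipopolysaccharide (LPS), the bacterial cell wall component that drives systemic inflammation. The members were named as factors of brain endothelium and are a chosen part of their families. No measured value was in the rule, but earlier results of these data were known. Included were the SoxF genes Sox7, Sox17 and Sox18, the ETS genes Erg, Fli1 and Ets1, the forkhead genes Foxf2 and Foxq1, and Tal1. All 9 were present among 54119 genes summed from the transcript estimates and among the 19150 genes that carried enough counts to be tested. Vessels came from wild type C57BL6 mice of 2 to 3 months, injected intraperitoneally with PBS or with 10 mg/kg LPS. The LPS mice were killed after 15 min, 30 min or 4 h. No time is given for the PBS mice, and a single PBS group serves every LPS time, so the controls are not matched by time. Each group held 3 libraries, and each library pooled the vessels of 1 male and 1 female mouse, so the 2 sexes cannot be read apart. After perfusion and removal of the meninges the forebrains were homogenised and the vessels were separated on dextran and caught on a mesh, a preparation that holds endothelium together with pericytes, smooth muscle cells and whatever adheres to them. The question was how this set of regulators moved while the vessels passed from the resting to the inflamed state.

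SoxF proteins bind DNA through a high mobility group box, are made by endothelium of developing and adult vessels, and cover for each other in part. Erg and Fli1 are close relatives that hold many endothelial genes on, and Erg is known for keeping inflammatory genes silent in resting endothelium, while Ets1 is also made by lymphocytes. Foxf2 and Foxq1 are forkhead factors enriched in brain over other endothelium, Foxf2 being made by brain pericytes as well. Tal1 is a basic helix-loop-helix factor of blood and endothelial development that works in complexes with E proteins, Lmo2, Ldb1 and Gata factors.

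Depth ran from 18.3 M to 25.9 M fragments a library and the lowest count of any of the 9 genes in any library was 248, for Sox18 at 4 h. Levels within a gene are given as scaled CPM, counts per M fragments after the trimmed mean (TMM) scaling of edgeR, and levels between genes as TPM, transcripts per M transcripts, which allow for transcript length. Fold changes are log2 values with their standard errors (SE), and means carry their SD over 3 libraries. A gene was called when the edgeR quasi-likelihood test found its change to be beyond 1.5-fold at an adjusted p under 0.05, and the same test against no change at all is given beside it as the test with no fold limit. Library composition moved at 4 h, where the TMM factor averaged 0.717 against 1.17 in PBS. Scaling by library size alone lowered the median gene by 0.70 on the log2 scale at 4 h, and scaling by 14 endothelial marker genes raised it by 1.32. Under TMM the median gene stood at -0.01, so the changes below are relative to the middle of all genes. Whether fewer cells of a type or less RNA in each cell lies behind a lower value cannot be told apart in such bulk libraries. The labelled tissue held the endothelial markers in all 12 libraries, and no marker of the endothelial, pericyte or smooth muscle lists was at 0 in any group.

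In resting vessels the 9 genes spanned a wide range of levels. Sox17 stood highest at 518 TPM ± 6.84 (SD, n = 3), followed by Sox18 at 415 TPM ± 5.73. Erg at 112 TPM ± 4.12 and Foxf2 at 106 TPM ± 2.93 overlapped. Ets1 followed at 71.4 TPM ± 2.58 and Foxq1 at 67.1 TPM ± 1.90, and below them came Fli1 at 39.9 TPM ± 2.19, Sox7 at 25.1 TPM ± 0.406 and Tal1 at 13.9 TPM ± 0.635. Every other pair of neighbours in this order was apart in all 3 PBS libraries. At 30 min Sox17 and Sox18 overlapped, at 287 and 281 TPM, and so did Fli1 and Sox7, at 37.0 and 35.1 TPM. At 4 h the order was different: Erg and Ets1 led at 109.7 TPM ± 4.21 and 109.4 TPM ± 0.576 and overlapped, Sox7 was the third at 35.7 TPM, Foxf2 and Sox17 overlapped at 25.0 and 24.7 TPM, and Foxq1 at 12.95, Sox18 at 10.8, Tal1 at 7.47 and Fli1 at 5.77 TPM closed the list. The level of Sox17 is summed over 8 transcript models that share exons, of which the short Sox17-204 held 30.95% and a retained intron model 12.5% over all libraries, so its TPM depends on how Salmon divided the reads.

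**Figure D1:**
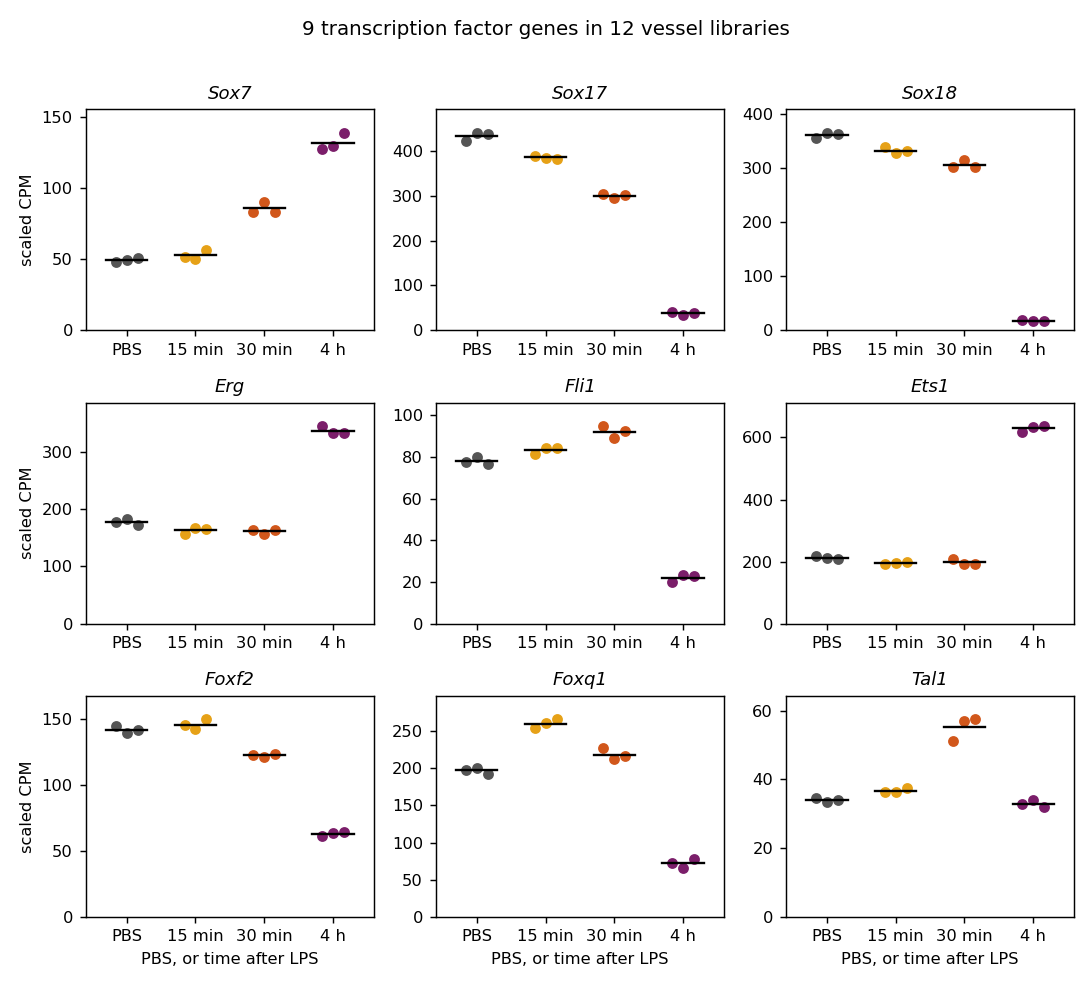
Scaled CPM of the 9 genes in each of the 12 libraries (1 point a library, 3 a group, bar at the group mean, each panel with its own axis from 0), by PBS or time after LPS. The 4 h points of Sox17, Sox18, Fli1, Foxf2 and Foxq1 lie below all other points of their panel, those of Sox7, Erg and Ets1 above them, and Tal1 is highest at 30 min. The scaling is TMM, and with endothelial marker scaling the 4 h changes of Foxf2 and Tal1 are 0.16 and 1.28.

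Among the 9 genes most calls past the fold limit came at 4 h. None was called by edgeR at 15 min, when 4.18% of all tested genes were, nor was any by DESeq2 or limma or at an unadjusted p under 0.05, where the count was also 0. In the same fit Sox7 alone was called at 30 min, when 4.58% of all genes were. At 4 h 8 of 9 were called, against 32.8% of all genes: 3 were higher (Sox7, Erg and Ets1, background 19.0%) and 5 were lower (Sox17, Sox18, Fli1, Foxf2 and Foxq1, background 13.8%), while Tal1 was not called. With library size scaling the calls were 2 higher and 6 lower, and with endothelial scaling, where Foxf2 turned to 0.16, they were 4 higher and 2 lower. Of all 19150 tested genes library size called 1907 higher and 8555 lower, and endothelial scaling 13901 and 325. With no fold limit the counts were 5 of 9 at 15 min (background 38.6%), 9 of 9 at 30 min (36.9%) and 8 of 9 at 4 h (68.5%). The libraries of LPS and PBS did not overlap for 7 of 9 genes at 15 min (49.3% of all genes), for 9 at 30 min (46.7%) and for 8 at 4 h (70.9%). On the log2 scale the 9 genes had median changes of 0.04, -0.11 and -1.17 in the order of the times, beside medians of 0.00 or -0.01 for all genes. All 3 comparisons use the same PBS libraries and so are not independent of each other.

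**Figure D2:**
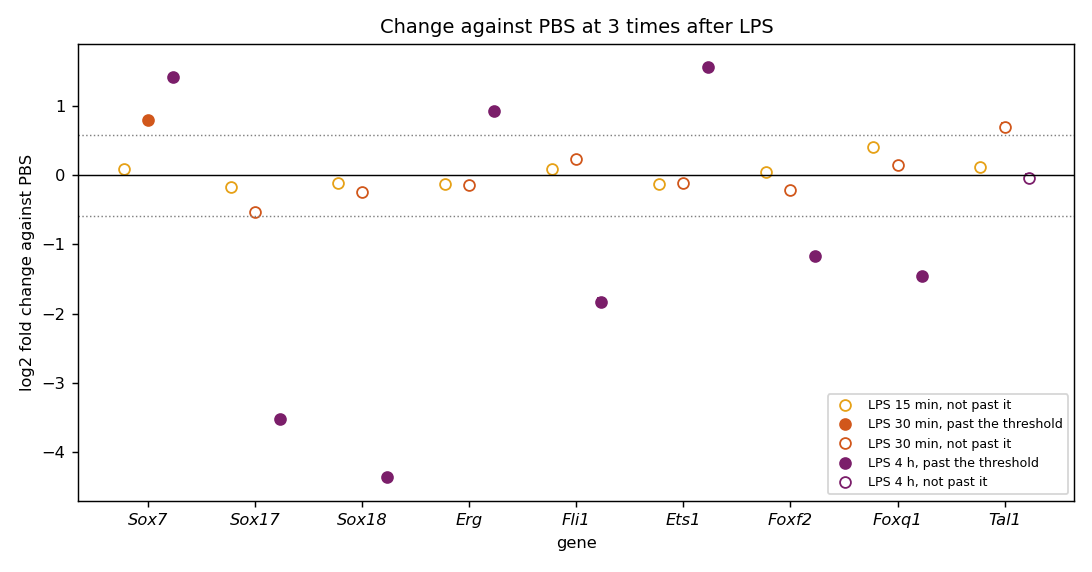
Log2 fold change against PBS of the 9 genes at the 3 times after LPS, with standard errors that are mostly smaller than the symbols (n = 3 libraries a group). Filled symbols passed the test for a change beyond 1.5-fold (dotted lines): Sox7 at 30 min, and 8 of the 9 genes at 4 h, of which the fall of Foxf2 turns to 0.16 when libraries are scaled by endothelial markers.

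The SoxF genes split. Sox17 supports arterial identity and, in brain endothelium, barrier formation. PBS libraries held 422, 439 and 436 scaled CPM of it, and 15 min libraries 389, 384 and 382. It was 303, 295 and 300.4 at 30 min and 41.7, 33.4 and 38.7 at 4 h. Each group lay wholly below the one before it. The change at 15 min was -0.17 ± 0.033 (SE) and at 30 min -0.53 ± 0.034 on the log2 scale, neither past the fold limit and both past the test with no fold limit (edgeR adjusted p = 0.000311 and 1.26e-11). At 4 h Sox17 fell by 3.52 ± 0.044, an 11.4-fold fall (edgeR adjusted p = 2.89e-25), and 0.595% of all tested genes fell further.

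Sox18, a regulator of vascular and lymphatic development, had the largest 4 h change of the 9. Its level was 355, 365 and 364 scaled CPM in PBS and 339, 328 and 331 at 15 min. It was 302, 314 and 302 at 30 min and 19.1, 16.6 and 17.1 at 4 h, where its counts were 248, 250 and 251. Again no 2 groups overlapped. After changes of -0.12 ± 0.028 and -0.24 ± 0.028 at the early times it fell by 4.36 ± 0.041 at 4 h, a 20.5-fold fall (edgeR adjusted p = 8.22e-28), and 0.324% of all genes fell further. Between 30 min and 4 h alone Sox18 fell 17.4-fold and Sox17 7.92-fold (edgeR adjusted p = 5.68e-27 and 2.10e-23).

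Sox7, the third SoxF gene and an early endothelial factor, went the other way. Its scaled CPM was 48.0, 49.5 and 50.9 in PBS and 51.6, 49.96 and 56.2 at 15 min, and these groups overlapped. It was 83.3, 90.4 and 83.2 at 30 min and 127, 129 and 139 at 4 h, on this scale each above the group before. Sox7 rose by 0.79 ± 0.049 at 30 min, or 1.73-fold (edgeR adjusted p = 0.00110), and by 1.41 ± 0.050 at 4 h, or 2.67-fold (edgeR adjusted p = 4.91e-14). The 30 min call was lost when libraries were scaled by size alone, with a change of 0.63 (edgeR adjusted p = 0.695), and with limma on the gene table at 0.77 and 0.76 (limma adjusted p = 0.106 and 0.126). Over all 12 alternatives the value ran from 0.63 to 0.92, with 9 of the 12 keeping the call. From 30 min to 4 h the difference was 0.62 ± 0.048, not past the fold limit (edgeR adjusted p = 0.234) but past the test with no fold limit. It was 0.083 with library size and not called, and 1.82 with endothelial scaling and called (edgeR adjusted p = 1.65e-17), and in TPM the levels were 35.1 at 30 min and 35.7 at 4 h, so the order of these groups rests on the scaling. Against PBS the 4 h change of Sox7 was 0.71 with library size and 2.74 with endothelial scaling, called under both.

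Within each library the make-up of the SoxF transcripts could be compared free of any scaling between libraries. Of the summed SoxF TPM Sox7 held 2.61%, 2.63% and 2.63% in PBS and 2.97%, 2.92% and 3.27% at 15 min. It held 5.65%, 6.12% and 5.72% at 30 min and 48.5%, 50.6% and 51.2% at 4 h. The scarcest SoxF gene of resting vessels thus became the most abundant one at 4 h. The TPM ratio of Sox17 to Sox7 went from 20.6 ± 0.0997 in PBS to 17.4 ± 1.05, 8.17 ± 0.538 and 0.693 ± 0.028 (SD, n = 3), apart from PBS at every time (two-sided exact permutation test p = 0.1 each, the smallest that 3 against 3 libraries can give). Sox17 and Sox18 also fell unequally: their ratio passed from 1.25 ± 0.013 in PBS to 1.02 ± 0.046 at 30 min and 2.29 ± 0.133 at 4 h (exact permutation p = 0.1). The summed SoxF TPM was 958 ± 12.05 in PBS, 603 ± 10.1 at 30 min and 71.1 ± 2.04 at 4 h.

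**Figure D3:**
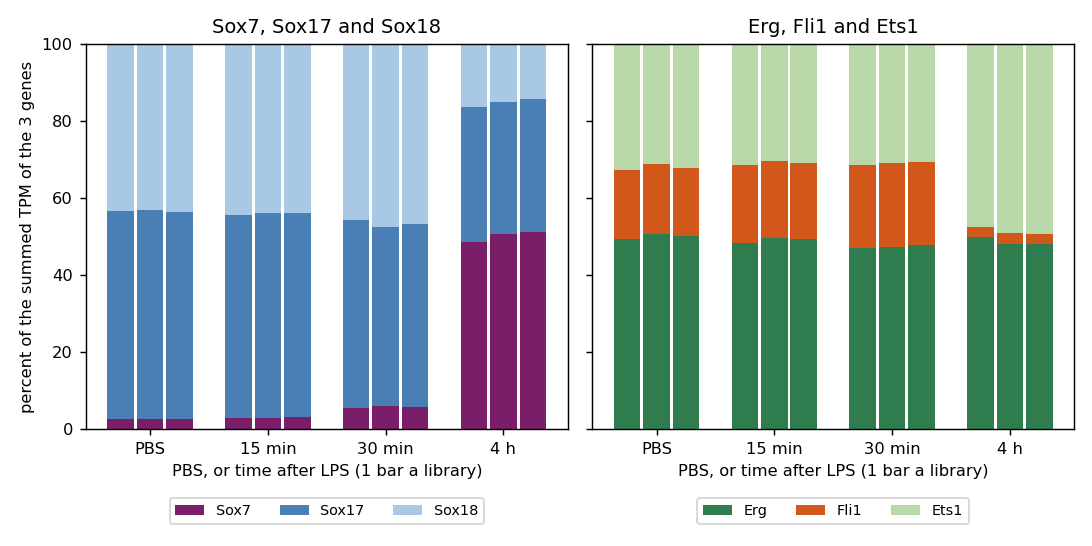
Share of the summed TPM of Sox7, Sox17 and Sox18 (left) and of Erg, Fli1 and Ets1 (right) held by each gene, in percent, 1 stacked bar a library and 3 libraries a group. Sox7 goes from 2.62% of the SoxF sum in PBS to 50.1% at 4 h, and Fli1 from 17.9% of the ETS sum to 2.57%.

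The ETS genes split as well. Erg has several transcription starts, and the windows of 250 bases before 3 of them are shown because the transcripts were spread so unevenly over them. The sequences are from RefSeq (GRCm38.p6), read 5′ to 3′ on the minus strand on which Erg lies, with matches to an ETS motif (CNGGAAG, either strand) or a Sox motif (ATTGTT, either strand) in capitals.
Erg proximal, chr16:95459349-95459598: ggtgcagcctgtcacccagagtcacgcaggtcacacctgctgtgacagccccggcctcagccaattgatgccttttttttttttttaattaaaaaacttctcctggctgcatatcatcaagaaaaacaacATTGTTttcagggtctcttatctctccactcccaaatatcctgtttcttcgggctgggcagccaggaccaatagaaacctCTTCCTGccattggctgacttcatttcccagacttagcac
Erg middle, chr16:95530366-95530615: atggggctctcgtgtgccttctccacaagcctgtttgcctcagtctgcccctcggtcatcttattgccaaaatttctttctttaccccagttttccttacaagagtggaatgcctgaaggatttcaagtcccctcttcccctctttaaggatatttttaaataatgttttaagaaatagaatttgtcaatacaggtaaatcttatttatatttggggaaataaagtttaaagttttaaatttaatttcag
Erg distal, chr16:95586594-95586843: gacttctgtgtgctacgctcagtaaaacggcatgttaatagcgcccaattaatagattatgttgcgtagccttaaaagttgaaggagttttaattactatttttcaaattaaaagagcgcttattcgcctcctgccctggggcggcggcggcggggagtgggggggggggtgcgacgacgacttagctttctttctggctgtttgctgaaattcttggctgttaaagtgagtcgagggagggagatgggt
The proximal window held an ETS match 40 bases and a Sox match 120 bases before the start, which do not overlap, and neither motif was in the other windows shown. Of 32851 windows of this length in the promoter table, 26.6% held the ETS letters and 9.42% the Sox letters, so such matches are common and mark no proven site. Of the 9 genes 3 (Erg, Foxf2 and Tal1) had entries in the table, and the windows of Foxf2 and Tal1 are not shown. Letters for AP-1 (in 6.75% of all windows) and for NF-kappaB (7.25%) were searched as well, with no match in the Erg windows. A Tal1 window held an ETS match 32 bases and an NF-kappaB match 69 bases before its start. The other Tal1 window and that of Foxf2 held no match.

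By Salmon's estimates, transcripts from the proximal start of Erg held 77.7% ± 3.20 of its TPM in PBS, 79.2% ± 4.78 at 15 min, 78.5% ± 2.84 at 30 min and 74.9% ± 4.15 at 4 h. Those from the middle start, the transcript Erg-208, held 18.9% ± 3.54, 17.2% ± 4.52, 18.9% ± 1.96 and 21.2% ± 2.70. The transcripts of the distal start were listed at 0 in all 12 libraries. The proximal and middle shares at each time overlapped those in PBS, so no shift between starts was resolved.

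Erg as a whole had a scaled CPM of 178, 183 and 172.5 in PBS and 156, 167 and 165 at 15 min. It had 163, 156 and 164 at 30 min and 345, 334 and 333 at 4 h. Both early groups lay just below PBS and the 4 h group lay well above every other library. The changes were -0.13 ± 0.032 and -0.14 ± 0.032 at the early times, past the test with no fold limit only, and 0.92 ± 0.032 at 4 h, 1.89-fold higher (edgeR adjusted p = 2.67e-10). The size of the 4 h rise depends on the scaling, since library size alone gave 0.22 with no call (edgeR adjusted p = 1.00) and the endothelial markers gave 2.24, and 11 of 12 alternatives kept the call. In TPM, which follows library composition, Erg was at 112 in PBS and 109.7 at 4 h.

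Ets1, which responds to inflammatory signals in many endothelia, rose more. It held 217, 213 and 209 scaled CPM in PBS and 193, 194 and 199 at 15 min. It was 207, 191 and 194 at 30 min and 619, 633 and 636 at 4 h, clear of all other libraries. After changes of -0.12 ± 0.029 and -0.11 ± 0.029, of which the second turns to 0.020 under endothelial scaling, it rose by 1.56 ± 0.029 at 4 h, or 2.96-fold (edgeR adjusted p = 4.49e-20). That value was 0.86 with library size and 2.89 with endothelial scaling, called under both.

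Fli1, the neighbour and close relative, did the opposite. Its scaled CPM was 77.5, 79.9 and 76.8 in PBS and 81.35, 84.5 and 84.4 at 15 min. It was 94.7, 89.0 and 92.4 at 30 min and 20.0, 23.1 and 22.7 at 4 h. It thus stood slightly above PBS at both early times, by 0.10 ± 0.042 and 0.24 ± 0.042, of which only the second passed the test with no fold limit (edgeR adjusted p = 0.000100). At 4 h it fell by 1.83 ± 0.054, or 3.55-fold (edgeR adjusted p = 1.66e-16), while under endothelial scaling the change was -0.50 and not called (edgeR adjusted p = 0.778). The other 11 of 12 alternatives kept the call. Fli1-201 held 98.1% of the gene's TPM over all libraries.

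The genes Fli1 and Ets1 lie side by side on chromosome 9 (GRCm38, GENCODE M21: Fli1 at chr9:32422204-32542861 on the minus strand, Ets1 at chr9:32636221-32757820 on the plus strand), 93.4 kb apart and with no other tested protein-coding gene between them. Their TPM ratio within each library, Ets1 to Fli1, was 1.83, 1.71 and 1.85 in PBS and 20.3, 18.2 and 18.5 at 4 h. The ratio of Erg to Fli1 was 2.76, 2.79 and 2.88 in PBS and 21.4, 17.8 and 18.1 at 4 h. Both ratios had first gone the other way, to 1.44 ± 0.023 and 2.19 ± 0.020 at 30 min, and every group was apart from PBS (exact permutation p = 0.1 each). The summed TPM of the 3 ETS genes was 223 ± 7.86 in PBS and 225 ± 3.55 at 4 h, values that follow library composition, and in scaled CPM Erg and Ets1 were both higher at 4 h. Erg lies apart from this pair, on chromosome 16, with Ets2 as a neighbour 115 kb away. The 4 h change of Ets2 was 0.69 ± 0.033, which was called (edgeR adjusted p = 0.00142) and read -0.010 under library size scaling.

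Several of these genes are also active in blood cells, and blood cell markers moved with the 4 h group. All 5 tested neutrophil genes of 6 listed were higher at 4 h, with a median change of 6.11, and their summed scaled CPM was 195 to 204 against 4.68 to 6.37 in PBS, with Ly6g at 0 in PBS. The summed lymphocyte list was at 4.23 to 4.73 against 6.74 to 8.30, the platelet and megakaryocyte list at 55.7 to 62.2 against 36.3 to 39.5, and the microglia and macrophage list at 201 to 205 against 213 to 215. By gene the median 4 h changes of these lists were -1.09, 0.71 and -0.67 in turn. Of the 8 microglia and macrophage genes 3 were called lower and 1 higher. The part of these cells in the changes of Fli1, Ets1 and Tal1 was not tested. Of the 14 endothelial markers 9 were lower and 2 higher at 4 h, with a median of -1.22, and their summed scaled CPM was 8018 to 8099 against 12596 to 12947 in PBS. With libraries scaled by those markers the 4 h changes of Sox17 and Sox18 were -2.19 and -3.04 and both were called.

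The forkhead genes Foxf2 and Foxq1 form another neighbouring pair, 64.8 kb apart on chromosome 13 and both on the plus strand (Foxq1 at chr13:31556134-31560976, Foxf2 at chr13:31625816-31631403). Foxf2, whose loss opens the blood-brain barrier in mice, had a scaled CPM of 144, 139 and 141 in PBS and 145, 142 and 149 at 15 min, which overlapped. It had 122, 121 and 123 at 30 min and 61.2, 63.8 and 63.9 at 4 h, both below PBS. The 30 min change of -0.21 ± 0.032 passed the test with no fold limit (edgeR adjusted p = 1.02e-05). At 4 h Foxf2 fell by 1.17 ± 0.036, or 2.25-fold (edgeR adjusted p = 9.49e-14), a fall that turned to 0.16 under endothelial scaling.

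Foxq1, a forkhead factor marking brain endothelium, had an early excursion upward. Its scaled CPM was 198, 201 and 192 in PBS and 254, 261 and 266 at 15 min, the 3 LPS libraries all above. It was 227, 213 and 216 at 30 min and 72.1, 65.3 and 78.55 at 4 h. The 15 min change of 0.40 ± 0.039, or 1.32-fold, was the largest of the 9 genes at that time, and it passed the test with no fold limit (edgeR adjusted p = 1.78e-08) but not the fold limit. At 30 min the change was 0.15 ± 0.039, and -0.017 with library size scaling. At 4 h Foxq1 fell by 1.46 ± 0.046, or 2.74-fold (edgeR adjusted p = 4.21e-15). Under endothelial scaling that value was -0.13 and not called (edgeR adjusted p = 1.00), the 1 of 12 alternatives that lost the call.

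The TPM ratio of Foxf2 to Foxq1, free of scaling, was 1.58 ± 0.058 in PBS, 1.23 ± 0.030 at 15 min, 1.23 ± 0.041 at 30 min and 1.94 ± 0.200 at 4 h (exact permutation p = 0.1 for each time against PBS). The next forkhead gene on the chromosome, Foxc1, lies 175 kb from Foxf2 and had a 4 h change of -0.34 ± 0.034 that was not called (edgeR adjusted p = 1.00). The 9 pericyte markers, beside Foxf2, had a median 4 h change of -0.16 with 2 lower and none higher, and their summed scaled CPM was 3654 to 3765 against 3970 to 4039 in PBS. On the opposite strand the whole of A530084C06Rik overlaps Foxq1, with a count of 0 in these estimates, and Gm37587 overlaps the start of Sox17 with a mean count of 26.6. The library kit does not keep strand, so reads in the shared parts cannot be assigned to a strand.

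Under TMM scaling Tal1 was highest at 30 min and overlapped PBS at 4 h. The libraries held 34.5, 33.4 and 34.2 scaled CPM in PBS and 36.4, 36.3 and 37.5 at 15 min. It was 51.3, 56.9 and 57.5 at 30 min and 33.0, 34.0 and 32.0 at 4 h. The 30 min libraries stood above all others, and the 4 h group overlapped PBS. The 30 min change of 0.70 ± 0.052, or 1.62-fold, passed the test with no fold limit (edgeR adjusted p = 2.42e-10) but not the fold limit (edgeR adjusted p = 0.100). Without replicate 1 of the 30 min group it was 0.75 and passed (edgeR adjusted p = 0.0175), and with a transcript length offset it was 1.00 and passed (edgeR adjusted p = 0.00140). Over the 12 alternatives it ran from 0.53 to 1.00, and 6 of them made the call. At 4 h the change was -0.05 ± 0.058 and not called. It was called as lower with library size (-0.75, edgeR adjusted p = 0.00262) and as higher with endothelial scaling (1.28, edgeR adjusted p = 1.19e-11), where it exceeded the 30 min change of 0.83, so the course of Tal1 after 30 min depends on the scaling. From 30 min to 4 h Tal1 fell by 0.74 ± 0.057 (edgeR adjusted p = 0.00517), a difference of 0.45 under endothelial scaling, and DESeq2 did not call it. Erythroid genes, another compartment in which Tal1 acts, had summed scaled CPM of 2165 to 2325 in PBS, 3223 to 3357 at 15 min, 4122 to 4322 at 30 min and 6473 to 6811 at 4 h. All 4 tested of the 6 listed were higher at 4 h, and their part in the course of Tal1 was not tested.

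Transcripts of Tal1 were not equally placed. The full-length Tal1-201 held 81.2% of its TPM over all libraries, with 12.8 TPM ± 0.400 in PBS, 13.6 ± 0.234 at 15 min, 16.5 ± 1.37 at 30 min and 6.75 ± 0.269 at 4 h. Tal1-202, a shorter model that starts inside the gene at base 115057438 of chromosome 4 and shares exons with it, held 15.3%. It was estimated at 0, 0 and 1.24 TPM in PBS and 2.37, 2.27 and 3.92 at 15 min. It was at 9.86, 3.19 and 3.25 TPM at 30 min and 0.850, 1.02 and 0 at 4 h. Salmon's share for Tal1-202, which may be no more than its division of reads that both models share, was 2.86% ± 4.95 in PBS, 16.5% ± 4.16 at 15 min, 23.1% ± 13.6 at 30 min and 7.92% ± 6.92 at 4 h. Replicate 1 of the 30 min group held the highest value of this model while having the lowest scaled CPM of Tal1 in its group, so the TPM and CPM of Tal1 order those 3 libraries differently.

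**Figure D4:**
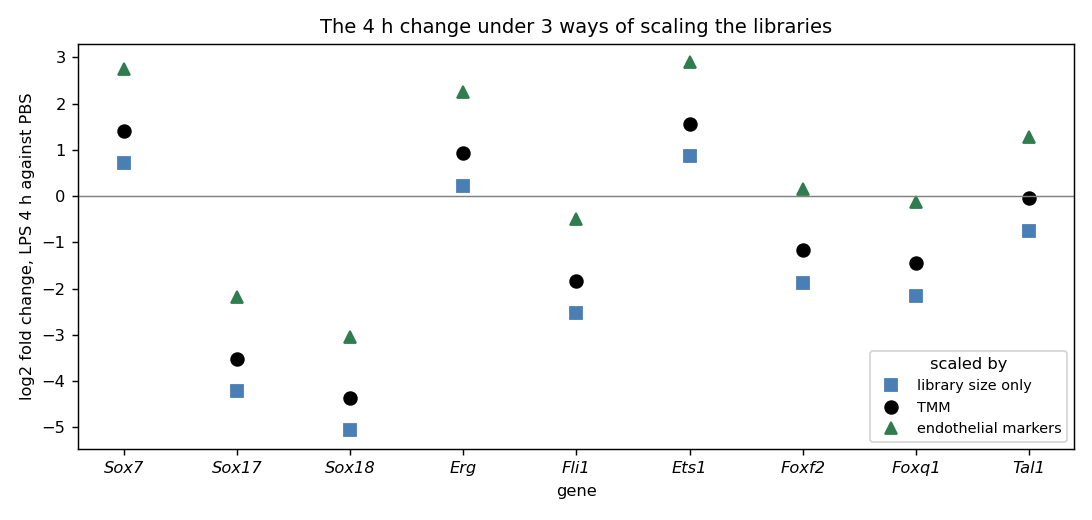
Log2 fold change of the 9 genes at 4 h against PBS with libraries scaled by size alone (squares), by TMM (circles) and by 14 endothelial marker genes (triangles). A scaling moves all genes by about the same amount, so the order of the genes is the same under each by construction. Sox17 and Sox18 are below 0 and Sox7, Erg and Ets1 above 0 under all of them, while Foxf2 (-1.87, -1.17 and 0.16) and Tal1 (-0.75, -0.05 and 1.28) change sign.

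The edgeR test from 15 min to 30 min called none of the 9, against 4.65% of all genes, and neither did DESeq2 or limma. At an unadjusted p under 0.05 the edgeR count was 1, Sox7. With no fold limit 7 of 9 passed it (37.4% of all genes), 3 higher (Sox7, Fli1 and Tal1, background 19.2%) and 4 lower (Sox17, Sox18, Foxf2 and Foxq1, background 18.2%). Sox7 had the largest difference at 0.70 ± 0.049 (edgeR adjusted p = 0.0593). Without replicate 3 of the 15 min group Sox7 passed, at 0.75 (edgeR adjusted p = 0.0133). Between the last times the test called 8 of 9, beside 28.6% of all genes. Erg at 1.06 ± 0.032 and Ets1 at 1.67 ± 0.029 were higher (background 16.9%), and the 6 others called, all but Sox7, were lower (background 11.8%). Endothelial scaling gave 3 higher and 3 lower, library size 1 higher and 6 lower, and DESeq2 2 higher and 5 lower. Over all 19150 genes these settings gave 13101 and 314, 1917 and 6931, and 2834 and 1607 in turn. With no fold limit all 9 passed (65.3% of all genes). Fli1, above PBS at 30 min, went to 4.19-fold below its 30 min level at 4 h (edgeR adjusted p = 8.78e-18).

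Among other members of the same families the ETS genes called at 4 h were mostly higher, while the Sox and forkhead genes went both ways. At 4 h the median over all tested genes was -0.01. Of 23 other ETS genes 21 were tested, and 13 were higher and 1 lower at 4 h, with a median of 1.39 (19.0% and 13.8% of all genes). The largest rises were Ehf at 5.22 ± 0.226, Elf3 at 3.48 ± 0.302 and Spic at 3.45 ± 0.356, from 0.2802, 0.367 and 0.534 TPM in PBS, and the fall was Elk3, a repressing ETS factor, at -1.52 ± 0.046. Blood cell markers also moved at 4 h, and their part in these ETS changes was not tested. The ETS repressor Erf was the only one called early, at 0.78 ± 0.047 at 30 min (edgeR adjusted p = 0.00117). That 1 call among 21 genes is near the 4.58% of all genes called at 30 min. Under library size scaling the ETS counts at 4 h were 10 higher and 5 lower (1907 and 8555 of all 19150 genes), and Ets2 changed sign. Under endothelial scaling the ETS counts were 19 and 0 (13901 and 325 of all genes).

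Of 11 tested Sox genes outside the SoxF group 2 were higher and 4 lower at 4 h, with a median of -0.28 (19.0% and 13.8% of all genes). The higher share is near that of all genes. Sox13 fell most, by 3.26 ± 0.040 (edgeR adjusted p = 2.66e-25), from 155 TPM in PBS to 7.96 TPM, and the falls included Sox10, a factor of oligodendrocytes, at -1.88 ± 0.317. The 7 oligodendrocyte lineage markers summed to 513 to 519 scaled CPM at 4 h against 424 to 445 in PBS. By gene their median change was -0.30, with 1 called lower and 0 higher, so the sum and the median went opposite ways. Sox9, a factor of astrocytes and cartilage, rose by 1.41 ± 0.049, and Sox4 by 0.72 ± 0.075. The summed scaled CPM of 6 astrocyte markers was 951 to 1000.5 at 4 h against 376 to 406 in PBS. By gene their changes ran from 0.0015 to 2.81 with a median of 0.51, and 3 were called higher and 0 lower. The part of astrocytes in the value of Sox9 was not tested. Under endothelial scaling 2 of the 4 falls changed sign, with 6 higher and 1 lower in all (13901 and 325 of all 19150 genes). Library size gave 1 higher and 6 lower (1907 and 8555 of all genes).

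Of 19 other forkhead genes 4 were higher and 4 lower at 4 h, with a median of -0.23, shares near the 19.0% and 13.8% of all genes. The largest of each were Foxp4 at 2.00 ± 0.058 and Foxd1 at -1.64 ± 0.103. Foxs1, a forkhead gene of vascular mural cells, was called at each time, at -1.47 ± 0.104 at 15 min, -0.95 ± 0.101 at 30 min and 1.21 ± 0.092 at 4 h (edgeR adjusted p = 1.59e-07, 0.00414 and 3.71e-07). Its TPM was 23.5 in PBS, 8.38 at 15 min, 9.78 at 30 min and 29.1 at 4 h. No other gene of this list was called at 15 or 30 min, when 4.18% and 4.58% of all genes were. The 5 smooth muscle markers summed to 1588 to 1613 scaled CPM at 15 min and 2248 to 2300 at 30 min, against 2470 to 2515 in PBS. By gene their median changes were -0.67 (3 called lower, 0 higher) and 0.12 (0 called). The 9 pericyte markers summed to 4118 to 4145 at 15 min and 3825 to 3835 at 30 min, against 3970 to 4039 in PBS. The part of these mural cells in the early values of Foxs1 was not tested. Under endothelial scaling, which gave 14 higher and 0 lower (13901 and 325 of all 19150 genes), 3 of the 4 falls changed sign. Under library size, which gave 1 higher and 11 lower (1907 and 8555 of all genes), 1 of the 4 rises did.

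Of 9 partners of Tal1, the proteins it binds or works beside, 5 were lower and 2 higher at 4 h, with a median of -0.98 (13.8% and 19.0% of all genes). Lyl1, a close relative of Tal1, fell by 1.13 ± 0.101 at 30 min (edgeR adjusted p = 7.03e-05) and by 4.67 ± 0.168 at 4 h (edgeR adjusted p = 2.22e-16), from 29.7 TPM in PBS to 0.605 TPM. It was the only call of this list at 30 min, when 4.58% of all genes were called. Cbfa2t3, a corepressor, fell by 2.61 ± 0.055. Runx1, a blood stem cell factor, rose by 3.42 ± 0.140 and the E protein gene Tcf4 by 1.87 ± 0.030, the latter from 62.4 to 133 TPM. Under endothelial scaling 3 of the 5 falls changed sign, with 4 higher and 2 lower in all (13901 and 325 of all 19150 genes). Library size gave 2 higher and 6 lower (1907 and 8555 of all genes).

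Of 10 tested other endothelial transcription factors none was higher and 4 were lower at 4 h, with a median of -0.54 (19.0% and 13.8% of all genes). At 15 and 30 min edgeR called none, beside 4.18% and 4.58% of all genes (0 as well at an unadjusted p under 0.05, as for rises at 4 h). The Notch target Hey1 fell most, by 2.08 ± 0.057, followed by Hhex at -1.80 ± 0.083. Under endothelial scaling 2 of the 4 falls changed sign and the counts turned to 7 higher and 1 lower (13901 and 325 of all 19150 genes). Library size gave 0 higher and 7 lower (1907 and 8555 of all genes).

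Endothelial genes known to be driven by ETS or SoxF factors also went both ways. Of 17 all were tested, 9 were lower and 3 higher at 4 h, with a median of -0.67 (13.8% and 19.0% of all genes). The falls were led by Clec14a, an endothelial surface lectin, at -3.46 ± 0.061 and Egfl7, a secreted endothelial factor, at -2.94 ± 0.111. The rises were led by Robo4, an endothelial guidance receptor, at 2.27 ± 0.024 and Cdh5, the endothelial cadherin, at 1.96 ± 0.021. Calls at early times were those of Kdr, the main receptor for endothelial growth factor, at -0.79 ± 0.027 and -0.99 ± 0.028, of the tight junction gene Cldn5 at -0.73 ± 0.021 and -0.90 ± 0.021, and of Clec14a at -0.97 ± 0.045 and -1.25 ± 0.046, at 15 and 30 min in turn. Dll4, a Notch ligand of arterial cells, was called at 30 min, at 0.72 ± 0.042 (edgeR adjusted p = 0.00927). Of all genes 4.18% were called at 15 min and 4.58% at 30 min. At these early times Sox7 at 30 min was the only one of the 9 genes past the same test. With no fold limit Sox17, Sox18, Erg and Ets1 (lower) and Foxq1 (higher) passed at 15 min, and all 9 passed at 30 min. With library size scaling Sox17 passed the fold limit at 30 min (-0.70, edgeR adjusted p = 0.00830). The order in time between the 9 genes and this list was not tested. Under endothelial scaling 3 of the 9 falls changed sign, with 9 higher and 5 lower in all (13901 and 325 of all 19150 genes). Library size gave 2 higher and 13 lower (1907 and 8555 of all genes). Many of the 17 genes, among them Cdh5, Kdr, Cldn5 and Egfl7, are also among the 14 markers that set the endothelial scaling. Their signs under that scaling are thus partly fixed by its choice.

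**Figure D5:**
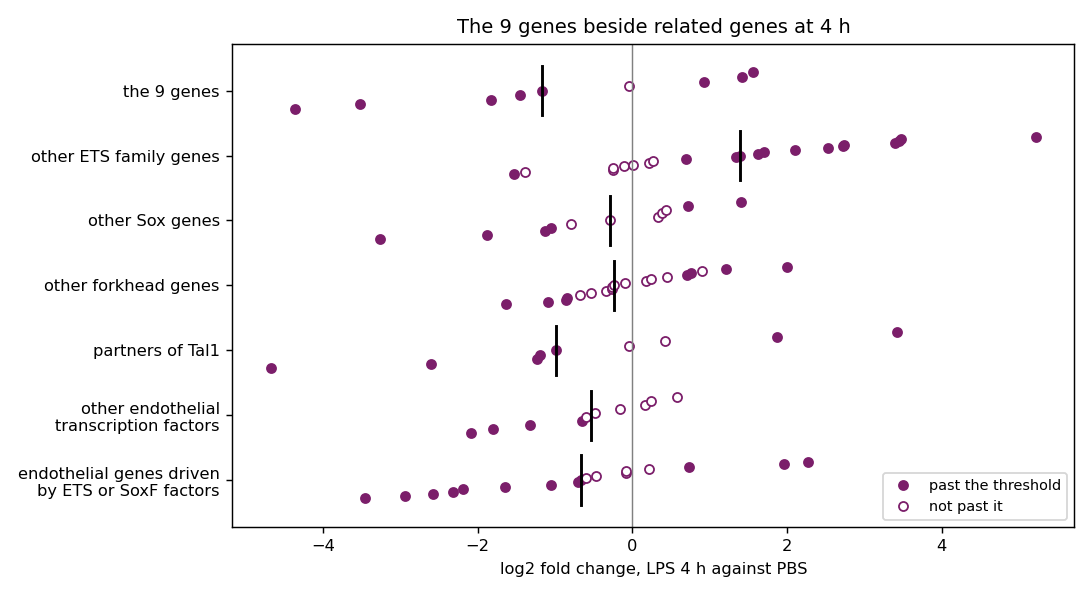
Log2 fold change at 4 h against PBS of the 9 genes and of related genes in 6 lists (1 point a gene, filled where past the test for a change beyond 1.5-fold, black line at the median of the list). The medians run from -1.17 for the 9 genes to 1.39 for the other ETS genes. Under scaling by endothelial markers 1 to 3 of the falls in each list change sign except for the other ETS genes, where none does.

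The genes most like each of the 9 over the 12 libraries were found by the Pearson correlation of log2 CPM among genes with a mean of at least 10 CPM. These values are a description over 12 libraries that share 4 groups, so they follow the group means. Sox7 was most like Cebpb, Cd14 and Rgs16 (r = 0.995, 0.995 and 0.994). Sox17 was most like Pnpla6, Ablim1 and Cep250 (r = 0.999, 0.999 and 0.998) and Sox18 most like Sox13, Slco1a4 and Eogt (r from 0.999 to 1.00). Erg was nearest to Gm4841, Abca1 and Pdzd2 (r = 0.998, 0.997 and 0.997) and Fli1 to Wfdc1, Pea15a and Notch4 (r = 0.998 each). Ets1 was nearest to Tor1aip1, 9930111J21Rik2 and Pml (r = 0.999 each). Foxf2 was nearest to Lfng, Car4 and Slc39a10 (r = 0.998, 0.998 and 0.997), and Foxq1 to Hey1, Slco1c1 and Zfp366 (r = 0.997, 0.996 and 0.995). Tal1 was nearest to Rpl14, Hexim1 and Hspa2 (r = 0.972, 0.964 and 0.964). Among the 9 themselves Sox17 and Sox18 had r = 0.996, Erg and Ets1 r = 0.995, Erg and Fli1 r = -0.993, and Tal1 had no r above 0.533 with any other.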

How the data were processed

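RNA of mouse cerebral vessels was sequenced by the authors from SMART-Seq v4 and Nextera XT libraries, which do not keep strand. The authors quantified transcripts with Salmon 1.2.1 (processing notes: GRCm38.p6) and deposited estimated counts and TPM for 140948 transcripts in each of 12 libraries. They also deposited a gene table of counts divided by size factors of DESeq2 and, through tximport, by transcript length (a normalized signal, used here in limma alternatives only). Its columns were matched to libraries by file number, and each of the 12 was nearest to the Salmon file of the same number.

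For this report 139852 transcripts were joined by identifier to GENCODE M21 (1096 were not), and the deposited estimated counts were summed to 54119 genes and rounded. edgeR 4.0.16 (R 4.3.3) was used with TMM factors, filterByExpr (minimum count 10) and 1 quasi-likelihood fit over 4 groups, tested against a 1.5-fold change (glmTreat) with Benjamini-Hochberg adjustment over 19150 genes. The study used DESeq2 with a fold limit of 1.5 that may be linear or log2, taken here as linear. DESeq2 is an alternative here (1.42.0), as is limma 3.58.1. Scaled CPM use library sizes times TMM factors. SE are those of the fitted log2 changes. Ratios of TPM were compared by exact permutation tests. Code was tested on simulated data.

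The libraries are labelled as separate pools of mice, so replicate spread is between pools. No 2 libraries of a group agreed within sampling noise. Replicate numbers did not pair libraries (r from -0.049 to 0.068 in 18 pairs). The 9 genes and the gene lists were chosen with earlier results of these data known. From each list the genes named are called genes with the largest rises and falls at 4 h (up to 4) and those called at 15 or 30 min, and for each of the 9 genes the 3 most alike, with 5% of a gene's TPM as the minimum for a described transcript. Motif letters were chosen after the sequences were seen.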

Additional observations from a re-analysis of the deposited data

Results flagged for a closer look

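For 8 of the 9 genes the change against PBS at 4 h differed from that at 30 min by the test of the difference itself (edgeR quasi-likelihood test beyond 1.5-fold, all with adjusted p under 0.05). This is the comparison of 4 h with 30 min already given above, in which 28.6% of all genes were called. On the log2 scale the difference, 4 h minus 30 min, was -4.12 for Sox18, -2.99 for Sox17, -2.07 for Fli1, -1.60 for Foxq1, -0.95 for Foxf2 and -0.74 for Tal1. It was 1.67 for Ets1 and 1.06 for Erg. For Fli1 the 2 changes had opposite signs, 0.24 at 30 min and -1.83 at 4 h, and the same held for Erg at -0.14 and 0.92, for Ets1 at -0.11 and 1.56, for Foxq1 at 0.15 and -1.46 and for Tal1 at 0.70 and -0.05. These signs are not all stable: endothelial scaling gave 0.020 for Ets1 at 30 min and 1.28 for Tal1 at 4 h, and library size gave -0.017 for Foxq1 at 30 min. Under scaling by endothelial markers the difference was 0.24 for Foxf2 and 0.45 for Tal1, which reverses both, and no other of the 8 changed sign under the scalings tried. The call was lost for Erg under library size (0.52) and for Foxq1 under endothelial scaling (-0.41), and DESeq2 did not call Tal1. Sox7 was not among them, with a difference of 0.62 (edgeR adjusted p = 0.234) that ran from 0.083 with library size to 1.82 with endothelial scaling, where it was called (edgeR adjusted p = 1.65e-17), as it was by the plain test followed by a fold limit. Blood cell markers moved with the 4 h group (summed neutrophil CPM 195 to 204 against 5.81 to 7.63 at 30 min), and their part in these differences was not tested.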

How the results depend on the processing

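Across 12 settings and 12 left-out libraries, single-gene results kept direction and call in 265 of 270 cases when 1 library was left out and in 487 of 540 under other settings. The 4 h count of 8 called genes was 8 with each library left out, 8 with 2 higher and 6 lower under library size, and 6 with 4 higher and 2 lower under endothelial scaling. From 30 min to 4 h Sox7 was called under endothelial scaling (1.82) and by the plain test followed by a fold limit. With no fold limit 5 of the 9 passed at 15 min, 9 at 30 min and 7 from 15 to 30 min. At 30 min 2 passed under endothelial scaling, with the plain test followed by a fold limit and with the length offset (Sox7 and Tal1), and 1 to 2 with a library left out. Under library size 1 passed there, Sox17 and not Sox7, and with limma 1, Tal1 and not Sox7. From 15 to 30 min 1 passed (Sox7) with RLE factors, endothelial scaling, no low-count filter or only the groups compared, 2 with the plain test followed by a fold limit, and 0 to 1 with a library left out.

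Over all genes the calls at 15 min, 30 min, 4 h, 15 to 30 min and 30 min to 4 h were 800, 877, 6273, 891 and 5484. With no fold limit they were 7393, 7066, 13124, 7153 and 12498. The plain test followed by a fold limit gave 2260, 2042 and 2277 for the comparisons of the early times (15 min, 30 min, 15 to 30 min), limma with a pseudocount of 1 gave 406, 531 and 443, and with 10 gave 385, 497 and 413. At 4 h library size gave 10462 calls (1907 higher, 8555 lower) and endothelial scaling 14226 (13901 and 325), beside 3636 and 2637. From 30 min to 4 h they gave 8848 (1917 and 6931) and 13415 (13101 and 314), beside 3229 and 2255. At 30 min library size gave 541 and 340 beside 724 and 153, and from 15 to 30 min library size gave 384 and 647 and endothelial scaling 642 and 259 beside 516 and 375. Leave-one-out fits gave 692 to 740 calls at 15 min, 775 to 826 at 30 min, 6021 to 6196 at 4 h, 759 to 814 from 15 to 30 min and 5244 to 5372 from 30 min to 4 h.

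Reversed values under endothelial scaling were Ets1 at 30 min (0.020), Foxf2 (0.16) and Tal1 (1.28) at 4 h, Erg from 15 to 30 min (0.073), and Foxf2 (0.24) and Tal1 (0.45) from 30 min to 4 h. Under library size they were Foxq1 at 30 min (-0.017) and Ets1 from 15 to 30 min (-0.13). With a library left out they were Erg from 15 to 30 min (0.0044 without replicate 2 of 15 min, 0.0077 without replicate 2 of 30 min) and Ets1 (-0.022 without replicate 1 of 30 min). Over all leave-one-out fits Erg ran from -0.045 to 0.0077 and Ets1 from -0.022 to 0.036 there. DESeq2 did not call Tal1 from 30 min to 4 h (-0.73, adjusted p = 0.150). Scaling shifts come from the choice of factors, and the cause of the other changes was not tested.

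With the replicate number as a block, 0, 1, 8, 0 and 8 of the 9 genes and 776, 856, 6235, 876 and 5422 of all genes were called in the 5 comparisons, and no call of the 9 changed. The numbers do not pair the libraries.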
